A study of Mus musculus with 6 samples.

Results

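The kinesin genes described here are the 41 genes, of 56393 in the count table, whose mouse symbol is Kif followed by a number and at most 1 letter from a to c, or Kifc followed by a digit. They were divided by textbook role into 13 mitotic kinesins, 15 cargo transport kinesins and 13 others, the last mostly ciliary motors and regulators of microtubule growth. The RNA came from cultured mouse cells that the labels call primary VSMC (vascular smooth muscle cells), kept in serum-containing medium without added treatment. KO libraries (n = 3) carry a knockout of Nono, which encodes an RNA- and DNA-binding paraspeckle protein, and WT libraries (n = 3) are wild type. The labels give neither the way the knockout was made nor the age or sex of the animals, and do not say whether replicates were separate cultures. The p-values therefore cover the spread among these 6 libraries, which may be technical. The study's design sets gene expression in KO cells against that in WT cells.

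Kinesins are motor proteins that use ATP to move along microtubules or to take them apart at their ends. Mitotic kinesins are made mostly in late S, G2 and M phase, where they build the bipolar spindle, align chromosomes and complete cytokinesis. Transport kinesins carry vesicles, mitochondria, endosomes and RNA through cells that are not dividing as well as through dividing ones. In vascular smooth muscle, the mitotic set marks cells in cycle, while the transport set serves organelle positioning, adhesion turnover and secretion.

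Library totals ranged from 57295800 to 61670083 counts in KO and from 56529170 to 60864603 counts in WT. Nono itself was at 51.1 to 55.97 CPM (counts brought to a common library size with the trimmed mean of M values, TMM) in KO and at 502 to 523 CPM in WT. Smooth muscle markers summed to 245 to 249 CPM in KO and to 67.4 to 76.5 CPM in WT, with 5 of 8 genes higher and 2 lower, or 4 and 2 with scaling by total counts. Of all 18732 tested genes, 35.1% were higher and 34.2% lower in KO (edgeR adjusted p under 0.05), the background for every marker count here. Acta2 averaged 161 ± 2.40 CPM in KO and 16.4 ± 1.27 CPM in WT, and Tagln 15.01 ± 1.67 CPM in KO and 0.859 ± 0.338 CPM in WT. Lmod1 and Smtn were also higher, while Des was lower. Myh11 did not exceed 0.437 CPM in KO or 0.734 CPM in WT, Cnn1 reached 3.95 CPM in KO and 0.0636 CPM in WT, and Myocd was at 0 counts in KO and at most at 0.634 CPM in WT. The 5 fibroblast markers ranged in sum from 10603 to 11477 CPM in KO and from 874 to 1024 CPM in WT, and all 5 were higher. The 6 neuronal markers summed to 0.696 to 2.04 CPM in KO and to 3.35 to 4.25 CPM in WT, and of the 6 ciliated and epithelial markers 4 (Dnah5, Epcam, Krt18 and Tekt1) were at 0 counts in every library. Endothelial markers (4 genes, with all 3 tested lower) summed to 0.564 to 0.950 CPM in KO and to 3.04 to 3.42 CPM in WT, and macrophage markers (5 genes, with Ptprc and Adgre1 at 0 throughout) to 5.20 to 6.21 CPM in KO and to 9.14 to 10.5 CPM in WT. Of the 3 macrophage markers tested, Csf1r and Cd68 were higher in KO, by 20.8-fold and 2.06-fold, and Lyz2 lower, at 0.213 CPM in KO and 8.54 CPM in WT. Transcripts of 4 Y-linked genes came in sum to 149.9 to 163.3 CPM in KO and to 0 to 0.0795 CPM in WT, so any difference that goes with the source of the cells cannot be told apart from genotype. The part of these marker differences in the kinesin results was not tested.

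Promoter sequences were examined because the mitotic kinesins moved largely together, as described further on. Promoters of many genes expressed in G2 and M phase hold a CHR (cell cycle genes homology region), with the core TTTGAA, often near CCAAT boxes. The repressive DREAM complex and the activating MuvB complexes with B-Myb and FOXM1 are known to bind through the CHR. RefSeq promoter windows of build GRCm38.p6, each running from 250 bases before to 50 bases after an annotated start, were found for 32 of the 41 kinesin genes. None was found for Kif5a, Kif5b, Kif13b, Kif19a, Kif20a, Kif21b, Kif28, Kifc2 and Kifc3. The stretch from 60 bases before to 25 bases after the start is shown for 6 mitotic kinesins that fell in KO and hold the CHR core there. In these lines, capitals mark TTTGAA or its reverse complement TTCAAA, and CCAAT or its reverse complement ATTGG.
Kif11 (chr19:37376322-37376406, plus strand): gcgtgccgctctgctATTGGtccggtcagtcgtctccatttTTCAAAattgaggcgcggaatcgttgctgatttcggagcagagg
Kif15 (chr9:122951021-122951105, plus strand): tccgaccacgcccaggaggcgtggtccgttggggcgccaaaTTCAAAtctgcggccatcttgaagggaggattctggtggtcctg
Kif18b (chr11:102925100-102925184, minus strand): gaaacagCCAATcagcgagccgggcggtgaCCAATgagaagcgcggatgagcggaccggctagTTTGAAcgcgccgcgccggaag
Kif20b (chr19:34922298-34922382, plus strand): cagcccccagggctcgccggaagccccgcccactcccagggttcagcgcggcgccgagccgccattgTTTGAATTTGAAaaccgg
Kif4 (chrX:100626005-100626089, plus strand): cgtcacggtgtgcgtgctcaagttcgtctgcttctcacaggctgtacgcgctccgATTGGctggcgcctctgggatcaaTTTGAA
Kifc1 (chr17:33890609-33890693, minus strand): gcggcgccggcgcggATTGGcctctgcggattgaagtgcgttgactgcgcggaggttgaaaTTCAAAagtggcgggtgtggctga

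For contrast, the same stretch is given for Kif22 and Kif23, mitotic kinesins that hold the CHR core but did not pass the test, for Kif18a, which fell without holding it, and for 2 transport kinesins that rose, Kif1c and Kif3c. The last 3 hold neither motif in this stretch.
Kif22 (chr7:127042396-127042480, minus strand): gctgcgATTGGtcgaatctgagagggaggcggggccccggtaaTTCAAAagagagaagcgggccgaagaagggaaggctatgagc
Kif23 (chr9:61946775-61946859, minus strand): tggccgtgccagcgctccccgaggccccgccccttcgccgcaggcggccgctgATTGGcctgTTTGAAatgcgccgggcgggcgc
Kif18a (chr2:109280678-109280762, plus strand): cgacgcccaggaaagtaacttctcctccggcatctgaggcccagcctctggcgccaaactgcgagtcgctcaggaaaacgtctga
Kif1c (chr11:70700488-70700572, plus strand): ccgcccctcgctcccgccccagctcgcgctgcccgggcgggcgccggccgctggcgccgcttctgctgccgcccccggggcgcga
Kif3c (chr12:3365072-3365156, plus strand): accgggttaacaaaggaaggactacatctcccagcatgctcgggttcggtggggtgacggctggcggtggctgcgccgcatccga

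Read on both strands over the whole window, TTTGAA was present in 10 of 12 mitotic kinesin promoters (83.3%), in 1 of 12 windows of 10 transport kinesins (8.33%) and in 17.9% of all 32851 promoter windows. The single transport match lay in 1 of 2 windows of Kif1a. Among the other kinesins, TTTGAA was present in 2 of 12 windows (16.7%), those of Kif26b and Kif27. CCAAT was present in 8 of 12 mitotic windows (66.7%), in 4 of 12 transport windows (33.3%) and in 37.4% of all windows, and among the kinesins no match of one motif overlapped a match of the other. Within the shorter stretch, whose limits were chosen after the matches had been seen, 8 of 12 mitotic kinesins held TTTGAA, beside 4.43% of all windows, and 6 held both motifs, beside 0.651% of all windows. Outside the mitotic kinesins, this stretch held TTTGAA in Kif1a and Kif26b, both higher in KO. Over the whole window, TTTGAA was held by 8 of 9 mitotic kinesins that fell and by both that did not pass the test. Kif20a, which passed as higher, had no window, so too few genes remained to tell whether matches go with the change. A match is a string of letters and not a measured binding site.

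**Figure D1:**
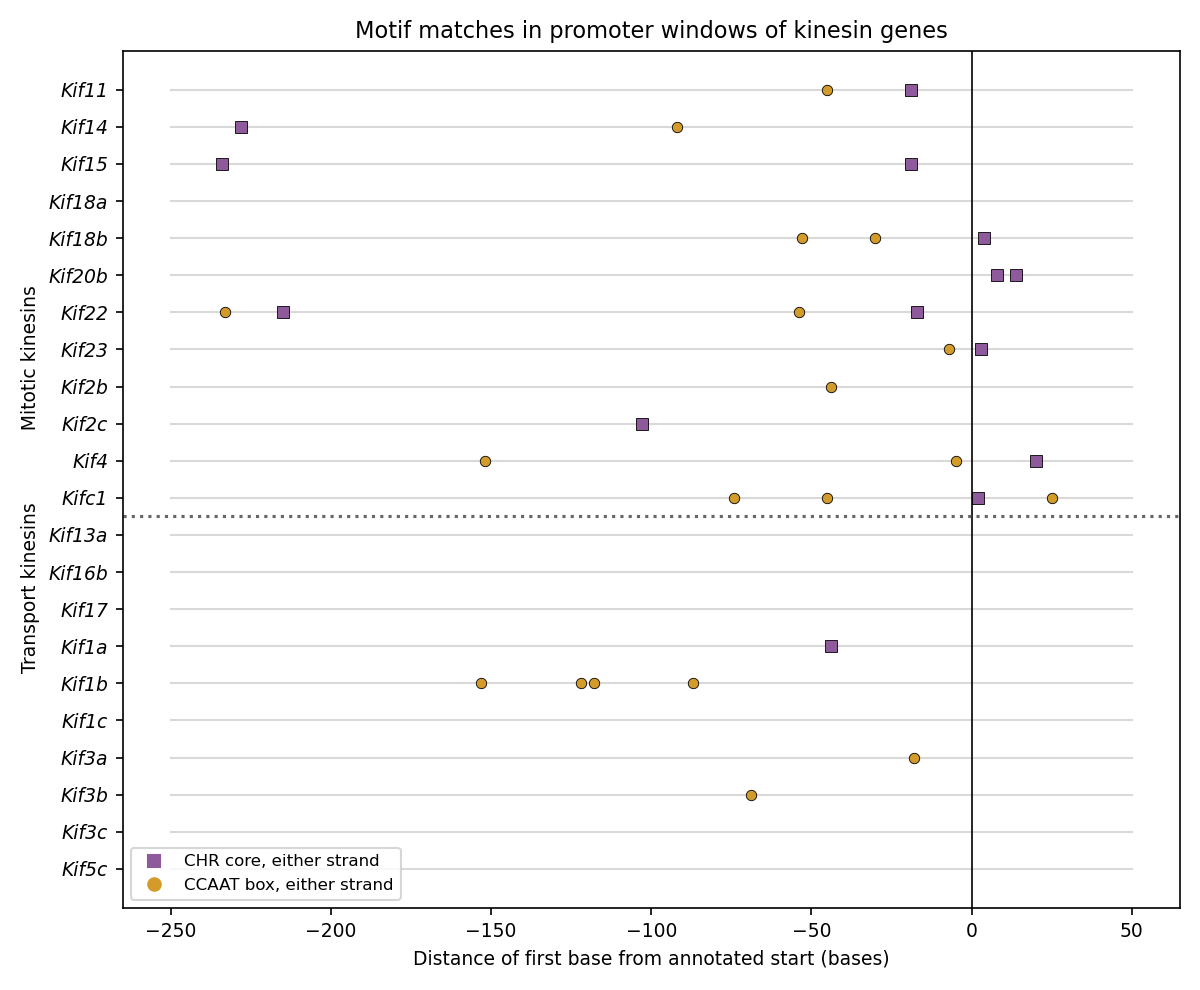
Positions of the CHR core (squares) and CCAAT boxes (circles), on either strand, in the promoter windows of 12 mitotic and 10 transport kinesin genes, as distance in bases from the annotated start (the 2 windows each of Kif1a and Kif1b are drawn on 1 line). CHR cores lie in 10 mitotic promoters, 8 of them close to the start, and in 1 transport promoter.

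Of the 41 kinesin genes, 37 had enough counts to be tested, and 12 of these were higher and 18 lower in KO at an adjusted p under 0.05 (edgeR quasi-likelihood test). Among all 18732 tested genes 69.3% passed, 35.1% higher and 34.2% lower, so a change by itself does not set the kinesins apart. Directions differed between the mitotic and the transport set. Of 12 tested mitotic kinesins 9 fell and 1 rose, with a median log2 fold change of -0.83, whereas of 15 transport kinesins 9 rose and 3 fell, with a median of 0.25. Of the 10 tested other kinesins 6 fell and 2 rose, with a median of -0.65, so falls were not confined to the mitotic set. The median over all tested genes was 0.03. At 2-fold or more, 6 mitotic kinesins were lower and 0 higher, and 1 transport kinesin was lower and 4 higher, beside 19.8% of all tested genes lower and 21.6% higher. KO and WT libraries did not overlap in CPM for 10 of the 12 tested mitotic and 12 of the 15 transport kinesins, against 75.5% of all tested genes. With scaling by total counts, which moved the median of all genes to -0.10, the mitotic count was 10 lower and 0 higher, and the transport count 7 higher and 3 lower.

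The summed level of each role was similar among libraries of a genotype. Mitotic kinesins summed to 292.5, 335 and 318 CPM in the 3 KO libraries, against 682, 661 and 679 CPM in the 3 WT libraries. Transport kinesins summed to 1241, 1248 and 1247 CPM in KO, against 1161, 1185 and 1175 CPM in WT. The mitotic sums lay far apart, whereas the order of the transport sums depended on the scale. Per total counts, without TMM factors, transport kinesins summed to 1181 to 1199 in KO and to 1205 to 1258 in WT, so that KO was lower, and by deposited FPKM the groups overlapped, at 200.4 to 204 in KO and 194.8 to 202 in WT. On the same scales the mitotic sum stayed lower in KO, at 278 to 322 per total counts in KO and 702 to 708 in WT, and at 83.0 to 91.3 FPKM in KO and 180.3 to 189 FPKM in WT. Mitotic genes made up 17.4 ± 1.02% of the kinesin CPM in KO and 29.99 ± 0.639% in WT (SD, n = 3 each). Transport genes made up 68.7 ± 0.546% in KO and 52.2 ± 0.261% in WT. The sum of the other kinesins was also lower in KO, at 251.5 ± 10.9 CPM against 400.7 ± 11.5 CPM in WT. The log2 ratio of the mitotic to the transport sum, which no library scaling can move, was -1.98 ± 0.09 in KO and -0.80 ± 0.04 in WT (SD, n = 3 each), a difference of -1.18. From the deposited FPKM (fragments per gene length and library size), which divide by gene length, the difference in this ratio was -1.09. Bulk RNA cannot tell fewer dividing cells from less mitotic RNA in each cell.

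**Figure D2:**
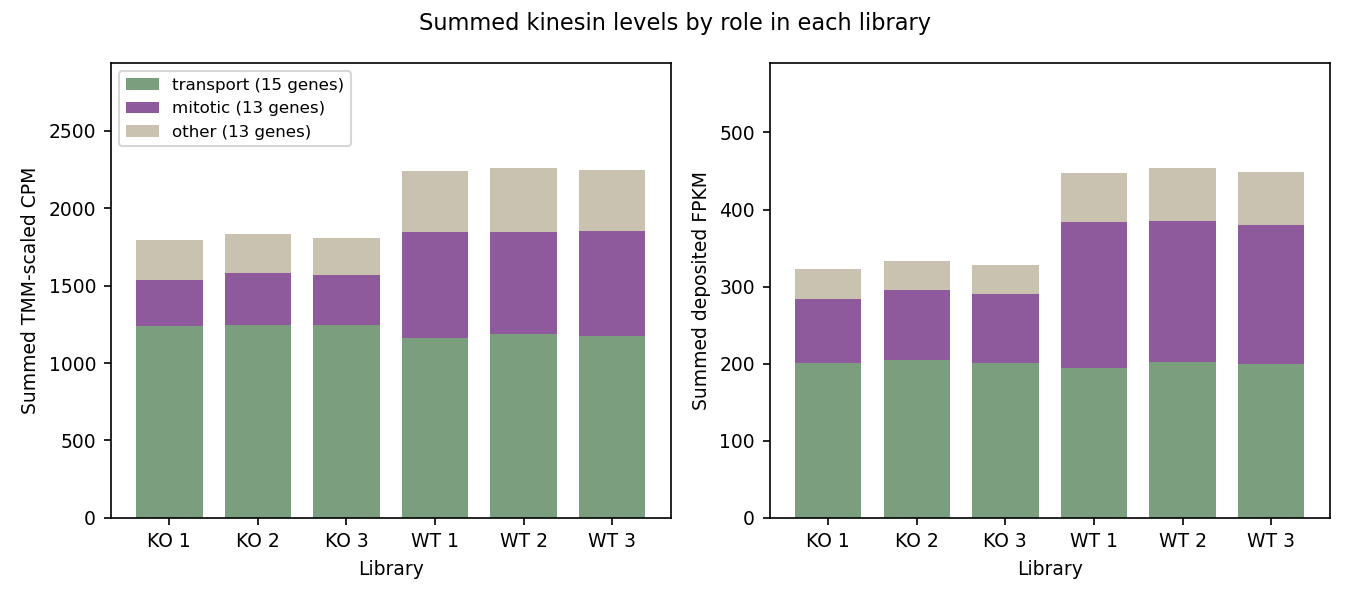
Summed level of transport, mitotic and other kinesin genes in each KO and WT library, as TMM-scaled CPM (left) and as deposited FPKM (right). The mitotic part is 292.5 to 335 CPM for KO and 661 to 682 CPM for WT, while the transport part is 1241 to 1248 CPM in KO and 1161 to 1185 CPM in WT, an order that turns per total counts and overlaps by FPKM.

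Motors that build the spindle fell. Kif11 (Eg5, ENSMUSG00000012443), the tetrameric motor that pushes spindle poles apart, had 31.1, 39.04 and 39.9 CPM in KO, against 178, 178 and 193 CPM in WT. All KO libraries lay far below all WT libraries. The difference was 4.99-fold (log2 fold change -2.32 ± 0.10 SE, edgeR adjusted p = 1.91e-07), the largest decrease among the tested mitotic kinesins. Kif15 (ENSMUSG00000036768), which can stand in for Kif11 in keeping the spindle bipolar, had 20.3, 24.8 and 22.6 CPM in KO, against 73.6, 68.1 and 69.5 CPM in WT. Its groups were equally well separated, and it fell 3.11-fold (log2 fold change -1.64 ± 0.09 SE, edgeR adjusted p = 5.51e-07). Kifc1 (HSET, ENSMUSG00000079553), a minus-end motor that focuses spindle poles, had 33.4, 34.8 and 36.2 CPM in KO, against 59.4, 55.6 and 42.9 CPM in WT. WT replicate 3 was the lowest WT library and still above every KO library, and the decrease was 1.51-fold (log2 fold change -0.60 ± 0.12 SE, edgeR adjusted p = 0.00197). Kifc1 has a near-identical copy, Kifc5b, at 10.1 to 12.7 CPM in KO and 36.8 to 38.2 CPM in WT, between which reads may have been split. Counted together, the pair had 45.0 to 47.5 CPM in KO and 79.7 to 97.6 CPM in WT, a log2 fold change of -0.96 ± 0.08 SE (edgeR adjusted p = 1.06e-05), so the Kifc1 value alone is uncertain in size.

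Motors that act on chromosomes and on microtubule ends also fell, with 1 exception among those tested. Kif18b (ENSMUSG00000051378), which shortens astral microtubules, had 12.7, 15.5 and 11.7 CPM in KO, against 40.6, 43.3 and 41.9 CPM in WT, and fell 3.15-fold (edgeR adjusted p = 2.79e-06). Its paralogue Kif18a (ENSMUSG00000027115), which damps chromosome movements at metaphase, had 8.37, 8.09 and 8.94 CPM in KO, against 13.1, 10.8 and 14.2 CPM in WT. Its KO and WT libraries did not overlap, and it fell 1.498-fold (edgeR adjusted p = 0.00432). The gene Mettl15, at 4.14 CPM in KO and 8.47 CPM in WT, overlaps Kif18a on the other strand. The strand setting of the counts is not stated, so reads of these genes may not be separable. Kif2c (MCAK, ENSMUSG00000028678), a depolymerase that corrects wrong kinetochore attachments, had 18.7, 21.2 and 20.8 CPM in KO, against 39.7, 40.3 and 46.4 CPM in WT (2.08-fold lower, edgeR adjusted p = 1.34e-05). Kif4 (ENSMUSG00000034311), a chromokinesin that also shapes the midzone with Prc1, had 20.7, 24.4 and 23.9 CPM in KO, against 64.7, 58.5 and 61.1 CPM in WT. Groups of both genes were apart in every library.

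The exception was Kif22 (Kid, ENSMUSG00000030677), the chromokinesin that pushes chromosome arms towards the metaphase plate. It had 21.8, 28.4 and 20.7 CPM in KO, against 22.3, 22.1 and 24.98 CPM in WT. The groups overlapped, with KO replicate 2 the highest library, and the log2 fold change was 0.03 ± 0.13 SE (edgeR adjusted p = 0.853). Its sign turned under scaling by total counts, from the FPKM and without KO replicate 2 or WT replicate 2. Kif2b, a depolymerase related to Kif2c, was at 0 counts in all libraries.

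Cytokinesis motors did not move together. Kif20b (ENSMUSG00000024795), needed for the last step of cytokinesis, had 22.4, 21.3 and 21.7 CPM in KO, against 78.8, 76.2 and 79.8 CPM in WT. Its groups were far apart and tight, with a log2 fold change of -1.84 ± 0.06 SE (edgeR adjusted p = 3.90e-08). Its paralogue Kif20a (MKLP2, ENSMUSG00000003779), which brings the chromosomal passenger complex to the midzone, had 69.5, 81.9 and 79.9 CPM in KO, against 68.7, 66.8 and 65.6 CPM in WT. The lowest KO library was just above the highest WT library, and Kif20a passed the test as higher, by 1.15-fold (log2 fold change 0.20 ± 0.07 SE, edgeR adjusted p = 0.0337). That call did not hold with scaling by total counts (adjusted p = 0.410), under the replicate block (adjusted p = 0.0691), without a filter on low counts, from the FPKM, or without any 1 of KO replicates 2 and 3 and WT replicates 1 to 3 (edgeR adjusted p = 0.0513 to 0.109). The gene Cdc23, higher in KO (log2 fold change 0.64), overlaps Kif20a on the other strand.

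Kif23 (MKLP1, ENSMUSG00000032254), the motor of the centralspindlin complex, had 19.6, 22.2 and 18.9 CPM in KO, against 22.3, 24.2 and 21.2 CPM in WT. Its groups overlapped, and the log2 fold change of -0.16 ± 0.10 SE did not pass (edgeR adjusted p = 0.181). With scaling by total counts Kif23 was called lower (adjusted p = 0.0332). Racgap1, which pairs with Kif23 in centralspindlin, was at 79.0 CPM in KO and 200.2 CPM in WT. Kif14 (ENSMUSG00000041498), which positions citron kinase at the midbody, had 13.8, 13.7 and 12.98 CPM in KO, against 20.8, 17.3 and 18.7 CPM in WT. It fell 1.40-fold (edgeR adjusted p = 0.00252) with no overlap of the groups.

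**Figure D3:**
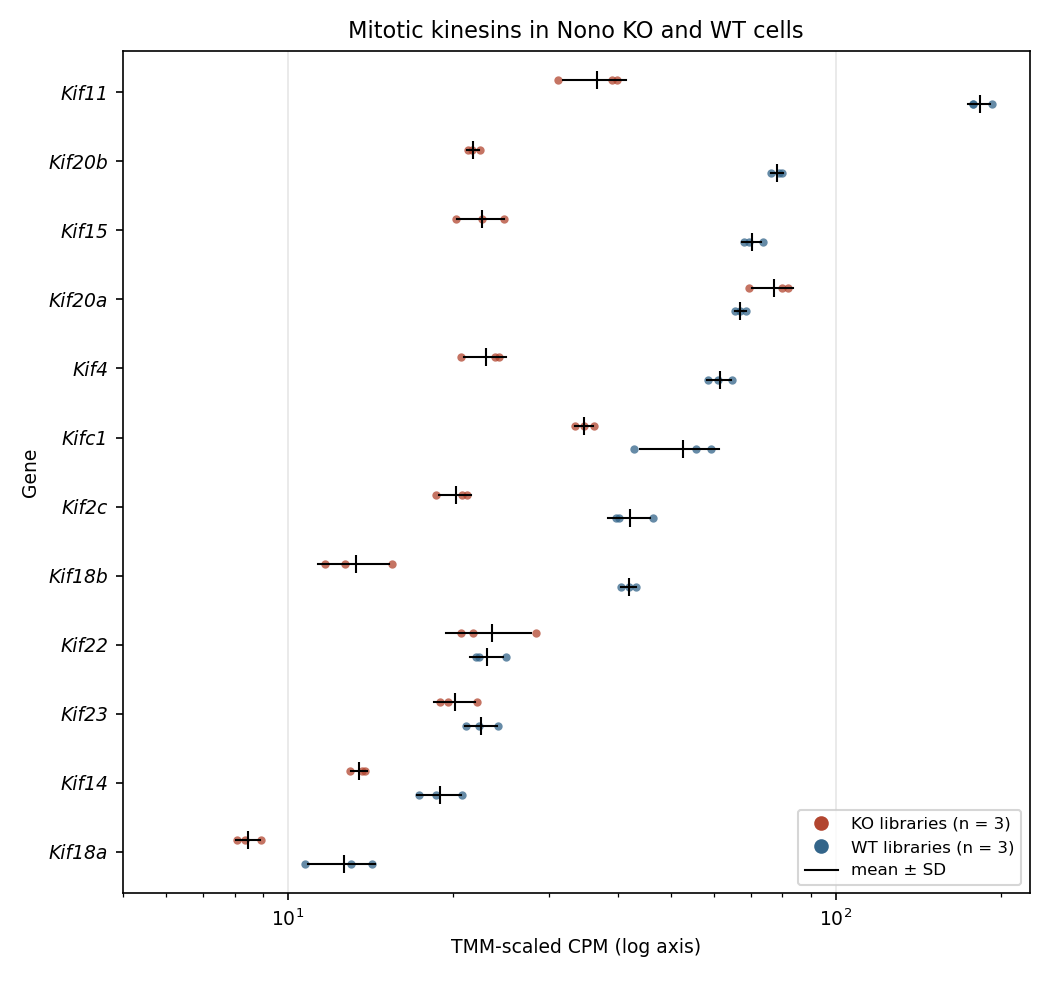
Level of each tested mitotic kinesin gene in the 3 KO libraries (upper row of each gene) and the 3 WT libraries (lower row), as TMM-scaled CPM on a log axis, with mean ± SD. Kif11, Kif20b, Kif15 and Kif4 show wide gaps, while the points of Kif22 and Kif23 overlap and those of Kif20a lie close together with KO above WT.

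Within-library count ratios of paralogous genes do not depend on library scaling. Gene length cancels when they are compared between genotypes, provided that the transcripts counted have the same length in both. The count ratio of Kif20a to Kif20b was 3.10, 3.84 and 3.68 in KO, against 0.872, 0.877 and 0.822 in WT. The count ratio of Kif18b to Kif18a was 1.52, 1.92 and 1.31 in KO, against 3.11, 4.02 and 2.95 in WT. Neither pair overlapped between genotypes. Both gave an exact two-sided permutation p of 0.10, the smallest that 3 against 3 libraries allows, and an adjusted p of 0.11 over 10 pairs. None of the 10 pairs can pass 0.05 in this design. Reads of Cdc23 and Mettl15, which overlap Kif20a and Kif18a on the other strand, may enter the ratios given here.

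The mitotic kinesins changed order. By deposited FPKM, which allow levels of different genes to be compared per length, the highest mitotic kinesin in KO was Kif20a (20.6 ± 2.20 FPKM), ahead of Kifc1 (15.1 ± 0.506 FPKM) and Kif22 (9.97 ± 1.48 FPKM), while Kif11 was at 6.42 ± 0.842 FPKM. In WT it was Kif11 (34.9 ± 1.47 FPKM), ahead of Kifc1 (28.8 ± 4.63 FPKM) and Kif15 (20.7 ± 0.429 FPKM; SD, n = 3 each). Kif20a itself was at 20.2 ± 0.687 FPKM in WT, within its KO spread. The FPKM of Kif15 and Kif20a in WT differed by less than the larger SD. Kifc5b, which may share reads with Kifc1, was at 4.57 ± 0.306 FPKM in KO and 15.8 ± 0.358 FPKM in WT. The rank of Kifc1, and with it the first place in either genotype, is therefore uncertain.

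Among other genes of mitosis, 23 of 27 tested partners of these motors were lower in KO and 3 higher, with a median log2 fold change of -0.93, beside 34.2% lower and 35.1% higher among all tested genes. Mad2l1, a spindle checkpoint protein, was at 25.2 ± 1.25 CPM in KO and 229.7 ± 16.9 CPM in WT, and Ckap5, a microtubule polymerase, at 119.9 ± 4.73 CPM in KO and 274.5 ± 3.45 CPM in WT. Top2a, a topoisomerase of condensing chromosomes, fell 4.73-fold and Birc5, the passenger complex subunit survivin, 4.23-fold. Cenpe, a kinetochore kinesin whose symbol lies outside the family rule, had 37.6, 40.7 and 37.0 CPM in KO, against 56.2, 58.7 and 56.9 CPM in WT (1.49-fold lower, edgeR adjusted p = 5.84e-05). Ccnb2, a B-type cyclin, was higher, at 33.4 CPM in KO and 14.8 CPM in WT, and Plk1, the polo kinase, did not pass (edgeR adjusted p = 0.298).

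Of 18 regulators of mitotic gene transcription, 15 were lower and 3 higher in KO, or 15 and 2 with scaling by total counts, beside the same 34.2% and 35.1% of all tested genes. Foxm1, an activator of G2 and M phase genes, had 34.8, 33.8 and 39.01 CPM in KO, against 72.6, 61.8 and 101 CPM in WT. The WT libraries were spread widely but lay above every KO library (log2 fold change -1.13 ± 0.18 SE, edgeR adjusted p = 0.00103). Lin9, a core MuvB subunit, fell 5.76-fold, and Rbbp4, another MuvB subunit with roles in chromatin complexes, 2.40-fold. Rbl2, which encodes the DREAM pocket protein p130, was at 131.6 ± 5.03 CPM in KO and 18.7 ± 0.692 CPM in WT, and Cdkn1a, the p21 inhibitor of cyclin-dependent kinases, rose 7.03-fold. Elsewhere in the list, Rbl1 fell 3.90-fold, Lin54 3.28-fold and E2f4 2.01-fold, whereas Lin37 rose 1.41-fold. These values are set beside those of the kinesins, and their part in them was not tested.

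The transport kinesin with the highest FPKM differed between genotypes, and the widely used carriers moved in opposite directions. Kif1c (ENSMUSG00000020821), which carries vesicles and integrins and acts at podosomes of smooth muscle cells, had 349.6, 343 and 364 CPM in KO, against 179, 192 and 179 CPM in WT. The groups were widely separated and Kif1c rose 1.92-fold (log2 fold change 0.94 ± 0.05 SE, edgeR adjusted p = 4.09e-07). Kif5b (ENSMUSG00000006740), the ubiquitous heavy chain of conventional kinesin, had 255, 256 and 254 CPM in KO, against 401, 371 and 404 CPM in WT. It fell 1.54-fold, with KO libraries nearly identical and all below WT (log2 fold change -0.62 ± 0.04 SE, edgeR adjusted p = 3.71e-06). Kif1b (ENSMUSG00000063077), a motor for mitochondria and vesicle precursors, had 182, 191 and 178 CPM in KO, against 231, 256 and 234 CPM in WT and fell 1.31-fold (edgeR adjusted p = 0.000272). By deposited FPKM, Kif1c led in KO (53.9 ± 1.27) ahead of Kif5b (36.7 ± 0.689), and in WT Kif5b (61.0 ± 1.86) led ahead of Kif1c (30.7 ± 1.89). The count ratio of Kif1c to Kif1b was 1.92, 1.79 and 2.04 in KO and 0.775, 0.750 and 0.766 in WT (exact permutation p = 0.10).

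Kinesin-II subunits changed unequally. Kif3a (ENSMUSG00000018395), the shared motor subunit, had 58.0, 52.2 and 49.3 CPM in KO, against 32.5, 37.7 and 39.6 CPM in WT, and rose 1.45-fold (edgeR adjusted p = 0.00106). Kif3b (ENSMUSG00000027475), its usual partner in cilium transport, had 66.9, 68.2 and 69.0 CPM in KO, against 66.9, 64.6 and 65.4 CPM in WT. Those libraries overlapped, and the log2 fold change of 0.05 ± 0.05 SE did not pass (edgeR adjusted p = 0.390). Its sign was negative both from the FPKM and with scaling by total counts. Kif3c (ENSMUSG00000020668), the alternative partner of Kif3a, had 56.9, 55.6 and 57.8 CPM in KO, against 24.6, 29.0 and 28.2 CPM in WT. It rose 2.08-fold with a wide gap between groups (edgeR adjusted p = 4.41e-06). Kifap3, the subunit that links this motor to cargo, was at 56.2 ± 1.22 CPM in KO and 44.5 ± 1.18 CPM in WT (1.26-fold higher, edgeR adjusted p = 0.000802).

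An endosome motor and the minus-end motors of the group rose. Kif16b (ENSMUSG00000038844), which binds early endosomes through a lipid-binding domain, had 32.6, 45.7 and 46.6 CPM in KO, against 24.7, 28.1 and 23.5 CPM in WT (1.64-fold higher, edgeR adjusted p = 0.00250). KO replicate 1 lay nearer to WT than the other KO libraries but above them all. Kifc2 (ENSMUSG00000004187), a minus-end motor best known in neurons, had 11.99, 9.47 and 11.5 CPM in KO, against 5.26, 4.74 and 4.95 CPM in WT, and rose 2.21-fold (edgeR adjusted p = 0.000105). Cyhr1, which overlaps it on the other strand at 113.6 CPM in KO and 173.7 CPM in WT, was lower. Kifc3 (ENSMUSG00000031788), which acts at adherens junctions and the Golgi, had 59.9, 59.99 and 57.2 CPM in KO, against 50.98, 48.3 and 49.7 CPM in WT. The increase was 1.19-fold (edgeR adjusted p = 0.00421), a call lost with scaling by total counts (adjusted p = 0.0855).

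The paralogues Kif13a and Kif13b, carriers of endosomes and membrane receptors, were close to level. Kif13b (ENSMUSG00000060012) had 111, 104 and 105 CPM in KO, against 94.8, 93.6 and 87.97 CPM in WT. It was 1.16-fold higher (edgeR adjusted p = 0.00734), but the call was lost with scaling by total counts (adjusted p = 0.203) and from the FPKM, where the log2 fold change was -0.0029. Kif13a (ENSMUSG00000021375) had 47.9, 54.0 and 48.0 CPM in KO, against 45.0, 51.9 and 50.2 CPM in WT. The groups overlapped (log2 fold change 0.03 ± 0.08 SE, edgeR adjusted p = 0.777). The sign turned with scaling by total counts and without KO replicate 2 or WT replicate 1.

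Neuronal transport motors were low and went in different directions. Kif1a (ENSMUSG00000014602), the axonal carrier of synaptic vesicle precursors, had 229, 218 and 191 counts in KO (3.90, 3.96 and 3.24 CPM), against 0 counts in every WT library. Set against 3 counts summed over the WT group (0.0161 CPM) it was at least 229.6-fold higher (edgeR adjusted p = 6.03e-06). Kif5c (ENSMUSG00000026764), a heavy chain enriched in neurons, had 0.852, 1.09 and 0.543 CPM in KO, against 2.71, 3.18 and 4.04 CPM in WT, and fell 3.99-fold (edgeR adjusted p = 0.000579). Kif5a (ENSMUSG00000074657), the other neuronal heavy chain, had 3.99, 2.73 and 3.11 CPM in KO, against 2.58, 4.07 and 4.44 CPM in WT. Its groups overlapped and it did not pass (edgeR adjusted p = 0.570). Kif17 (ENSMUSG00000028758), a dendritic and ciliary motor, rested on 67 counts in KO and 23 in WT. Its call as 3.09-fold higher (edgeR adjusted p = 0.0284) was lost under the replicate block (adjusted p = 0.0877) and without any 1 of the libraries other than WT replicate 2 (edgeR adjusted p = 0.0657 to 0.0952). Sh2d5, at 2.38 CPM in KO and 0.694 CPM in WT, overlaps Kif17 on the same strand, so their reads may not be separable.

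**Figure D4:**
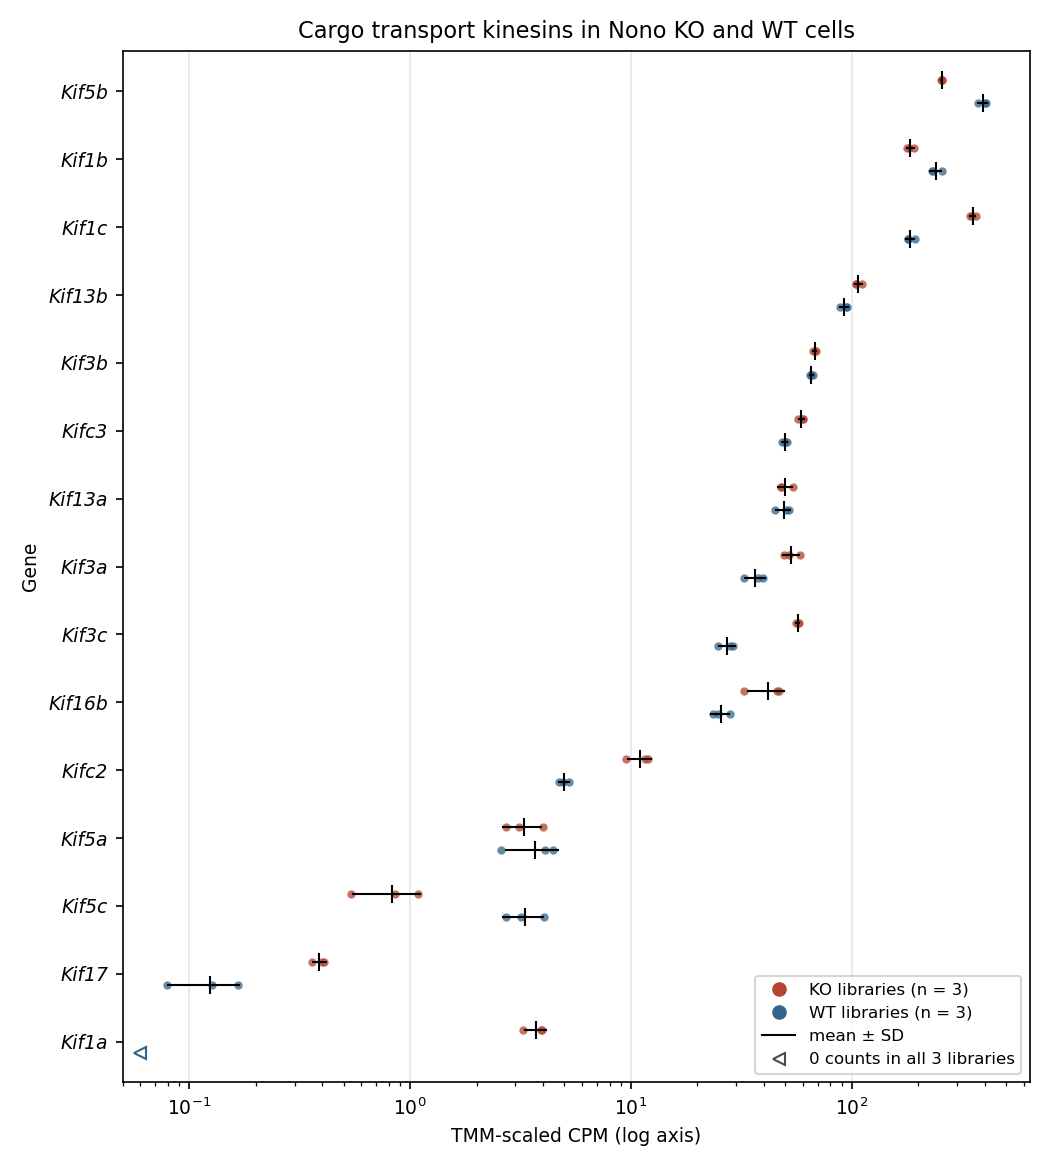
Level of each transport kinesin gene in the 3 KO libraries (upper row of each gene) and the 3 WT libraries (lower row), as TMM-scaled CPM on a log axis, with mean ± SD and a triangle for 0 counts in all libraries. Kif1c, Kif3c and Kifc2 lie higher in KO, Kif5b, Kif1b and Kif5c lower, and Kif1a is counted in KO alone.

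Light chains and adaptors tie transport kinesins to cargo. Of 16 tested, 7 were higher and 5 lower in KO, or 6 and 5 with scaling by total counts. The share that passed, 75%, was near the 69.3% of all tested genes. Klc1, a light chain of conventional kinesin, was at 152.7 ± 2.19 CPM in KO and 95.4 ± 4.02 CPM in WT, a 1.60-fold increase, while the heavy chain Kif5b fell. Of the other light chains, Klc4 rose 1.68-fold, whereas Klc2 fell 2.10-fold and Klc3 1.46-fold. Arl8a, the lysosomal GTPase that recruits kinesins, rose 1.58-fold, and Kif1bp, which binds and holds back several kinesin motor domains, rose 1.70-fold (45.2 ± 2.67 CPM in KO, 26.7 ± 1.66 CPM in WT). Rhot1 (Miro1), the mitochondrial GTPase that anchors kinesins, fell 1.68-fold.

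Among the 13 remaining kinesins, 10 were tested, of which 2 rose and 6 fell, beside 35.1% higher and 34.2% lower among all tested genes. The median log2 fold change of these 10 was -0.65, beside -0.83 for the mitotic kinesins. Kif26b (ENSMUSG00000026494), a kinesin without ATPase activity that takes part in Wnt5a signalling and kidney development, had 68.9, 64.8 and 56.98 CPM in KO, against 7.004, 5.79 and 6.47 CPM in WT. It rose 9.89-fold, with KO and WT libraries far apart (log2 fold change 3.31 ± 0.11 SE, edgeR adjusted p = 4.61e-08). Kif9 (ENSMUSG00000032489), a motor of motile cilia, had 5.18, 5.35 and 5.65 CPM in KO, against 0.475, 0.784 and 1.21 CPM in WT, a 6.54-fold increase (edgeR adjusted p = 0.000101). The marker of motile ciliated cells Foxj1 did not exceed 0.291 CPM in KO or 0.550 CPM in WT.

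Regulators of microtubule growth fell together. Kif21a (ENSMUSG00000022629), which slows microtubule growth at the cell cortex, had 55.6, 54.5 and 54.7 CPM in KO, against 135, 139.7 and 134 CPM in WT (2.48-fold lower, edgeR adjusted p = 7.02e-08). Kif21b (ENSMUSG00000041642), its paralogue, had 48.9, 47.3 and 44.7 CPM in KO, against 119, 138 and 119.6 CPM in WT (2.67-fold lower, edgeR adjusted p = 5.49e-07). For both genes every KO library was below every WT library by a wide margin. Kif2a (ENSMUSG00000021693), a depolymerase at spindle poles and in axons, had 54.7, 47.8 and 55.5 CPM in KO, against 87.2, 80.8 and 89.5 CPM in WT, and fell 1.63-fold. Dimt1, which overlaps Kif2a on the other strand, was at 16.1 CPM in KO and 60.1 CPM in WT.

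Of the ciliary kinesins in this remaining set, Kif24, Kif19a and Kif7 were lower. Kif24, which restrains cilium formation at the mother centriole, fell 2.89-fold (4.65 ± 0.0877 CPM in KO, 13.4 ± 0.545 CPM in WT). Kif19a, which limits cilium length, was at 0.280 ± 0.0914 CPM in KO and 2.07 ± 0.382 CPM in WT. Kif7, the Hedgehog regulator at the cilium tip, was 1.29-fold lower (edgeR adjusted p = 0.0145), and Ticrr, which overlaps it on the other strand, was lower by 2.67 on the log2 scale. Kif6 and Kif27 did not pass (edgeR adjusted p = 0.143 and 0.887). From the FPKM Kif6 was called lower (limma adjusted p = 0.00697, log2 fold change -1.31 on the log2(FPKM + 0.1) scale, against -0.59 from the counts). Kif26a, Kif28 and Kif12 were too low to test, with 8, 24 and 0 counts in KO and 12, 95 and 0 counts in WT. All counts of Kif28 came from replicate 1 of each genotype, and Ahctf1 overlaps this gene on the same strand.

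**Figure D5:**
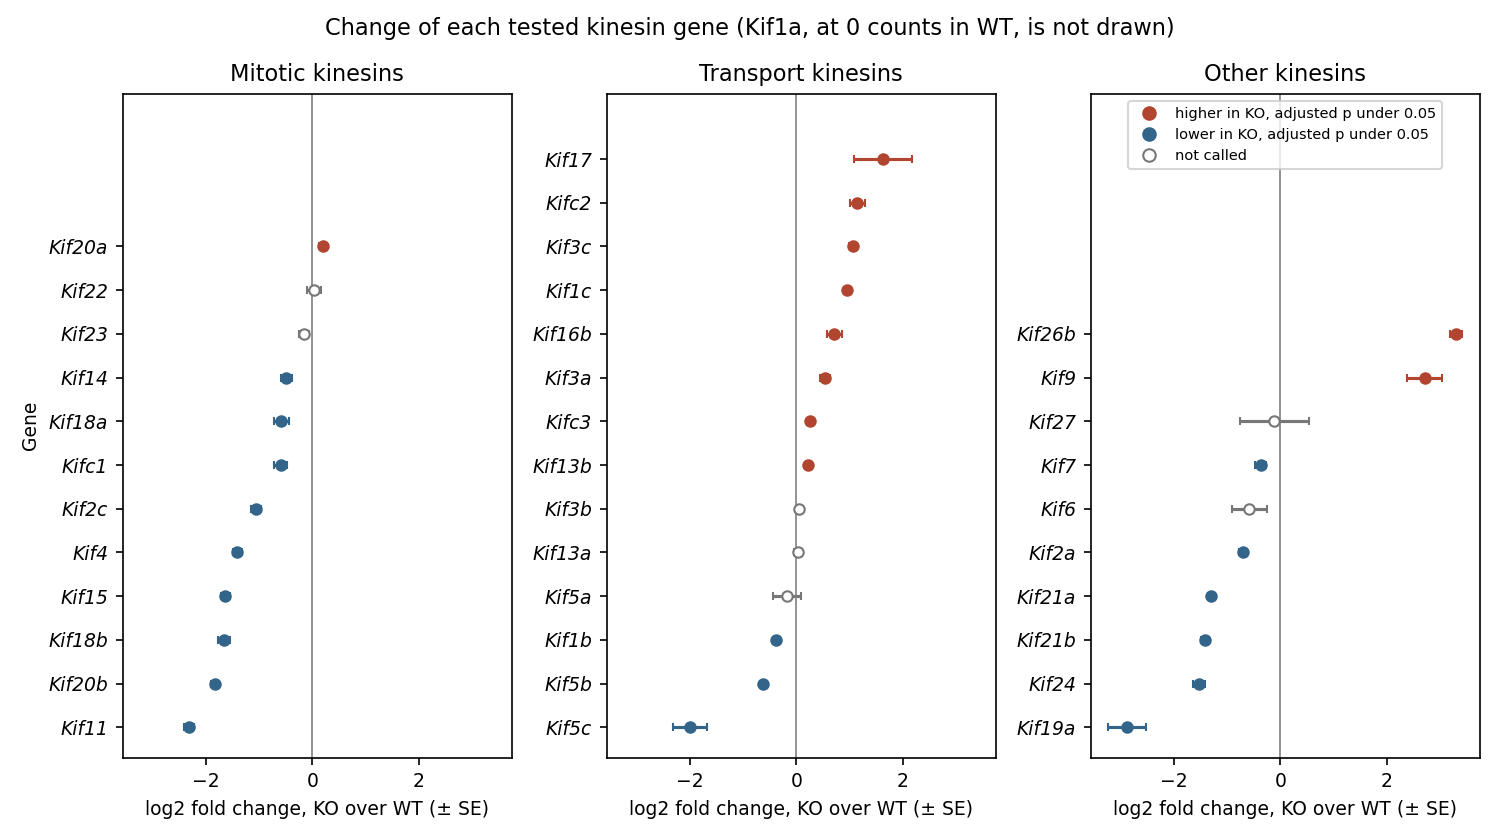
log2 fold change of each tested kinesin gene, KO over WT, with its standard error, for mitotic (left), transport (middle) and other kinesins (right). Filled points passed an adjusted p of 0.05 and open points did not; Kif1a, at 0 counts in WT, is left out. Of the mitotic genes 9 lie left of 0 and filled, whereas 8 of the transport genes drawn lie right of 0 and filled. Among the other genes 6 lie left of 0 and filled, and 2 right.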

How the data were processed

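RNA sequencing of 6 libraries, 3 Nono KO and 3 WT, was used, grouped by their titles. Per the file headers, the deposited table gives each Ensembl gene a raw read count and an FPKM value in every library. CASAVA 1.8, HISAT2, SAMtools 1.3.1, edgeR and the build GRCm39 are named in the submitters' processing notes. Neither the read counter nor its strand setting is stated in what was used here. Reads of overlapping genes may thus not be separable, and 13 of the 41 kinesins overlap an annotated gene at 1 CPM or more. The authors' FPKM do not follow from the deposited counts by a fixed factor per gene and library. Between libraries, FPKM per count departed by more than 0.1 (log2) from the median change in 17.1% to 27.3% of 7633 well-counted genes.

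Symbols came from GENCODE M21 by Ensembl ID (55394 of 56393 genes). Genes were filtered with filterByExpr, scaled with TMM factors and fitted in edgeR 4.0.16 under R 4.3.3. KO was tested over WT by robust quasi-likelihood F tests without covariates, with Benjamini-Hochberg adjustment over all 18732 genes. The SE is the size of the log2 fold change divided by the root of the quasi-F statistic. CPM are TMM-scaled, and means are given with SD over 3 libraries. The floor is 3 counts over a group and covers counting error only. Alternatives used DESeq2 1.42.0, limma 3.58.1, other scalings and filters, log2(FPKM + 0.1) and log2(FPKM + 1), a replicate block, and fits that dropped 1 library at a time. No pair of replicates came within counting noise of each other (chi-square over its degrees of freedom 22.6 to 34.8).

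The members, roles, gene lists and tests were chosen with earlier results of these data known. All matching symbols were named. From each pathway list the 4 tested members with the smallest adjusted p were named, plus Cenpe, Kifap3, Klc1, Foxm1 and Nono. Racgap1, Ccnb2, Plk1, Kifc5b, Klc2, Klc3, Klc4, Rbl1, E2f4, Lin37, Lin54, overlapping genes and single marker genes were chosen after their values were seen. Promoter windows came from RefSeq (GRCm38.p6).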

Additional observations from a re-analysis of the deposited data

How the results depend on the processing

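The 9 lower mitotic kinesins, counted again in every alternative, numbered 9 or 10 (6 at 2-fold or more, 8 with Kifc1 left out), and the 3 lower transport kinesins stayed 3 except as given here. Of 37 tested kinesins, 27 kept direction and call in every alternative run. The 1 higher mitotic kinesin, Kif20a, became 0 with scaling by total counts, without a filter on low counts, under the replicate block and in each fit to FPKM, and was 0 to 1 when a library was left out. Scaling by total counts gave medians of -0.96 for mitotic and 0.12 for transport kinesins. From log2(FPKM + 0.1) the mitotic median was -1.03, with or without the filter. From log2(FPKM + 1) the medians were -0.96 and 0.083. The log2 ratio of the summed levels was -1.09 from FPKM. The log2 ratio of KO to WT for the summed transport level was 0.086 on TMM-scaled CPM, and in comparisons added after seeing the data -0.044 per total counts and 0.022 from FPKM. With Kif2a counted as mitotic and Kif21a and Kif21b as transport, lower transport kinesins were 5, the mitotic median -0.70 and the ratio -0.96. Without Kifc1, an alternative chosen after seeing the data, the mitotic median was -1.06. At 2-fold or more, 4055 genes were higher and 3702 lower, with 6 kinesins higher and 11 lower. Of these, 0 mitotic were higher, and 4 transport kinesins were higher and 1 lower.

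Signs turned for small values. With scaling by total counts the log2 fold changes were -0.10 for Kif13a, -0.078 for Kif3b and -0.099 for Kif22. From log2(FPKM + 0.1), filtered or not, they were -0.072 for Kif3b, -0.0029 for Kif13b and -0.077 for Kif22. From log2(FPKM + 1) they were -0.066 for Kif3b, -0.0027 for Kif13b, -0.070 for Kif22 and 0.015 for Kif27. Leaving out 1 library gave -0.029 to 0.071 for Kif13a, -0.12 to 0.12 for Kif22 and -0.61 to 0.36 for Kif27. The cause of these moves was not tested. The replicate block changed the calls of Kif20a and Kif17 and of no other tested kinesin. It took the count of higher kinesins to 10 and left 18 lower. Same-numbered libraries did not deviate together (correlations -0.067 to -0.020). These values gave no sign of pairing, but with 3 libraries a group they cannot exclude it. The 3 libraries a group limit what single genes such as Kif17 and Kif27 can show.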

Other observations

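Among all tested genes, 35.1% were higher and 34.2% lower in KO. Of 13 tubulin genes, 6 were higher and 6 lower. Tubb2a rose 2.98-fold, and Tubb2b was at 98.2 ± 9.28 CPM in KO and 22.9 ± 1.48 CPM in WT. Tuba1a rose 2.21-fold, whereas Tubg1, which nucleates microtubules at the centrosome, fell 2.67-fold. Of 22 tested dynein and dynactin genes, whose motor runs towards the minus end, 12 were higher and 3 lower, or 10 and 5 with scaling by total counts, and the share that passed, 68.2%, was near the 69.3% of all tested genes. Dync1h1, the motor heavy chain, rose 1.76-fold, with means of 944.8 CPM in KO and 536.8 CPM in WT, and the adaptor Hook3 rose 1.47-fold. The light intermediate chain Dync1li1 fell 2.40-fold and the light chain Dynll2 1.62-fold.

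Of 28 genes of cilium transport and Hedgehog signalling, 15 were higher and 9 lower, or 14 and 10 with scaling by total counts, so that 85.7% passed, beside 69.3% of all tested genes. Ift122, of the retrograde complex of cilium transport, was at 45.6 ± 1.17 CPM in KO and 19.9 ± 1.37 CPM in WT. Dync2h1, the ciliary dynein heavy chain, rose 1.995-fold and the BBSome subunit Bbs2 3.32-fold. The Hedgehog receptor Ptch1, itself a Hedgehog target, was at 31.6 ± 2.58 CPM in KO and 116 ± 6.61 CPM in WT.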
